A study of Mus musculus with 4 samples.

Results

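Gpr183 and the 3 enzymes that make and break down its ligand, Ch25h, Cyp7b1 and Hsd3b7, were followed through the Tbx1 lineage of the mouse embryo. These 4 genes, of 32285 in each count matrix, were taken by symbol, and the set was chosen from measured values because Gpr183 was higher in endothelium of the mutant. The difference between genotypes in endothelium is therefore given as a description with no test. RNA of single GFP-positive cells was counted in 4 libraries from the dissected pharyngeal region and heart at E9.5. The 2 control libraries (cHet) were Tbx1Cre/+; Kmt2d F/+; GFP F/+ and the 2 mutant libraries (cKO) were Tbx1Cre/+; Kmt2d F/F; GFP F/+. Both genotypes carried Tbx1Cre, a knock-in that leaves a single working Tbx1 allele, so heterozygosity for Tbx1 was common to all libraries and no library had 2 working Kmt2d alleles in the lineage. Cre was driven by the Tbx1 locus and the sort kept only cells of that lineage. Each library pooled the cells of 4 embryos in Rep1 and of 3 embryos in Rep2. The labels give the strain as Swiss Webster, and the mice were kept on a mixed background with C57BL/6.

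GPR183, also called EBI2, is a Gi-coupled receptor for oxysterols, best known for guiding B cells, T cells and dendritic cells through lymphoid tissue. Its strongest ligand is a dihydroxylated cholesterol. CH25H adds the first hydroxyl group to cholesterol, CYP7B1 adds the second and so makes the ligand, and HSD3B7 oxidises the product and so removes it. Cells that express CYP7B1 without HSD3B7 are known as sources of the ligand, and cells that express HSD3B7 as sinks.

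Gpr183 (ENSMUSG00000051212) lies on chromosome 14 at 121952551 to 121965195 on the minus strand (GRCm38, GENCODE M21), inside the span of Ubac2, which is read from the opposite strand. Hsd3b7 (ENSMUSG00000042289) lies on chromosome 7 at 127800604 to 127803802 on the plus strand. Cyp7b1 (ENSMUSG00000039519) lies on chromosome 3 at 18071950 to 18243338 and Ch25h (ENSMUSG00000050370), a gene with 1 exon, on chromosome 19 at 34473778 to 34475164, both on the minus strand. The promoter windows of Gpr183 and Hsd3b7 are shown because these were the members with their highest level in endothelium. Each window runs from 250 bases before to 50 after the RefSeq start (GRCm38.p6), 5′ to 3′ on the strand of the gene. Capitals mark GGAAG on either strand, a core bound by ETS factors, a family with central roles in endothelial genes.
Gpr183, chr14:121965144-121965443, minus strand: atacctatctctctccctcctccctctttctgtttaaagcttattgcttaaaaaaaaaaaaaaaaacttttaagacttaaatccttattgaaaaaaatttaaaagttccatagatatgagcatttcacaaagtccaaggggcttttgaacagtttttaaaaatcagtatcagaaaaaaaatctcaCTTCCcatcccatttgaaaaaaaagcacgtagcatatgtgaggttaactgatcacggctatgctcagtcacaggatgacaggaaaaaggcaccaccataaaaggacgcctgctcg
Hsd3b7, chr7:127800359-127800658, plus strand: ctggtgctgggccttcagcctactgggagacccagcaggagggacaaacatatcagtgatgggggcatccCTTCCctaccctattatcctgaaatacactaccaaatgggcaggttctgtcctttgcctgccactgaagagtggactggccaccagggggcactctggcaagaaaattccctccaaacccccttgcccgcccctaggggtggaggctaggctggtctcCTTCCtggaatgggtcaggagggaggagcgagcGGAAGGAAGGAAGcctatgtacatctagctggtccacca
The Gpr183 window held 1 such match and the Hsd3b7 window 5, of which those after the start overlap each other. The motif was in 71.4% of 32817 promoter windows, so a match says little by itself. Gpr183 had a low GC content of 35.3%, against a median of 52.7% over all windows and 57.7% for Hsd3b7. The Ch25h window had 2 matches to GGAAG and the CRE palindrome TGACGTCA, which 1.79% of windows held. It also had TATAAA, in 13.6% of windows, and GTGGGAA, a core of the Notch factor RBPJ, in 6.39%. GGGCGG, the GC box, was in 35.6% of windows and, among these 3 genes, in that of Hsd3b7 with 1 match. The search covered both strands, and Cyp7b1 had no window in the table.

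The libraries held between 5869 and 11938 kept cells, with a median of 17241 to 22972 UMIs (unique molecular identifiers, each a counted RNA molecule) per cell. Clusters were built without the 4 members and named from marker genes, which gave 10 named types beside clusters left unnamed. A type name means that at least 3 of its markers were higher in the cluster than in the other cells. All 8 endothelial markers passed that rule in the endothelium-like clusters, which held 448 and 526 cHet cells and 275 and 664 cKO cells (Rep1 and Rep2). Rep1 and Rep2 were made with different 10x kits, so replicate and kit cannot be told apart. In cHet Rep1 the kept cells held 60.0% of the UMIs of the library, which listed 37093 barcodes, against 86.1% to 91.6% in the other 3 libraries. Libraries of the same replicate shared 87 and 71 cell barcodes and libraries of different replicates shared 0. Kmt2d RNA was at 19.4 and 21.2 CPM (UMIs scaled by all UMIs of the same cells) in cHet endothelium and 15.2 and 22.2 in cKO. The deleted part of Kmt2d was not located relative to the 3′ reads, so these values do not test the labels.

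Gpr183 was a transcript of endothelium in these embryos. Levels are given as CPM, the usual scaling of the UMIs of a gene by all UMIs of the same cells. The level in endothelium-like cells was 27.6 CPM in cHet Rep1, 60.7 in cKO Rep1, 32.2 in cHet Rep2 and 52.5 in cKO Rep2. In every other named type, all 4 libraries were at or below 1.86 CPM, a value reached in cardiac muscle. Endothelium thus did not overlap any other type, whereas each of the other types overlapped its neighbour in the order of levels, from cardiac muscle through pSHF and MLP (the posterior second heart field and multilineage progenitors) to neural crest. Endothelium held 77.9% to 90.7% of the Gpr183 UMIs of a library and 4.37% to 7.63% of its cells. Against all other cells of the same library, Gpr183 was 106-fold higher, with a log2 fold change of 6.73 ± 0.25 (SE, 4 libraries, edgeR quasi-likelihood fit). In that comparison 66.0% of 17400 genes passed the threshold. Gpr183 was chosen on its level in cKO endothelium, which is part of this comparison, so the difference is given with no p. In the cHet libraries alone it was at 27.6 and 32.2 CPM in endothelium and at 0.664 and 0.317 in all other cells.

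The share of endothelium-like cells with a Gpr183 UMI was 29.5% in cHet Rep1 (95% Wilson interval 25.4% to 33.9%), 56.0% in cKO Rep1 (50.1% to 61.7%), 31.6% in cHet Rep2 (27.7% to 35.7%) and 36.7% in cKO Rep2 (33.2% to 40.5%). Intervals cover counting error only. In epithelium, where the gene is not known to act, the share was 0.543% to 1.59%, at median depths of 18121 to 23272 UMIs per cell against 16629 to 27154 in endothelium. Outside endothelium 59 to 92 cells per library had a Gpr183 UMI, 0.523% to 1.53% of cells. Nearly all of them had a single UMI (76 of 76, 92 of 92, 59 of 60 and 58 of 59). Pecam1, an endothelial adhesion molecule, was detected in 1.32% to 2.17% of these cells and in 1.69% to 2.02% of the cells without Gpr183. In cardiac muscle the share was 2.06% to 4.26%, from 2 to 10 UMIs per library, above that in epithelium. Whether free RNA gave these UMIs was not tested.

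**Figure D1:**
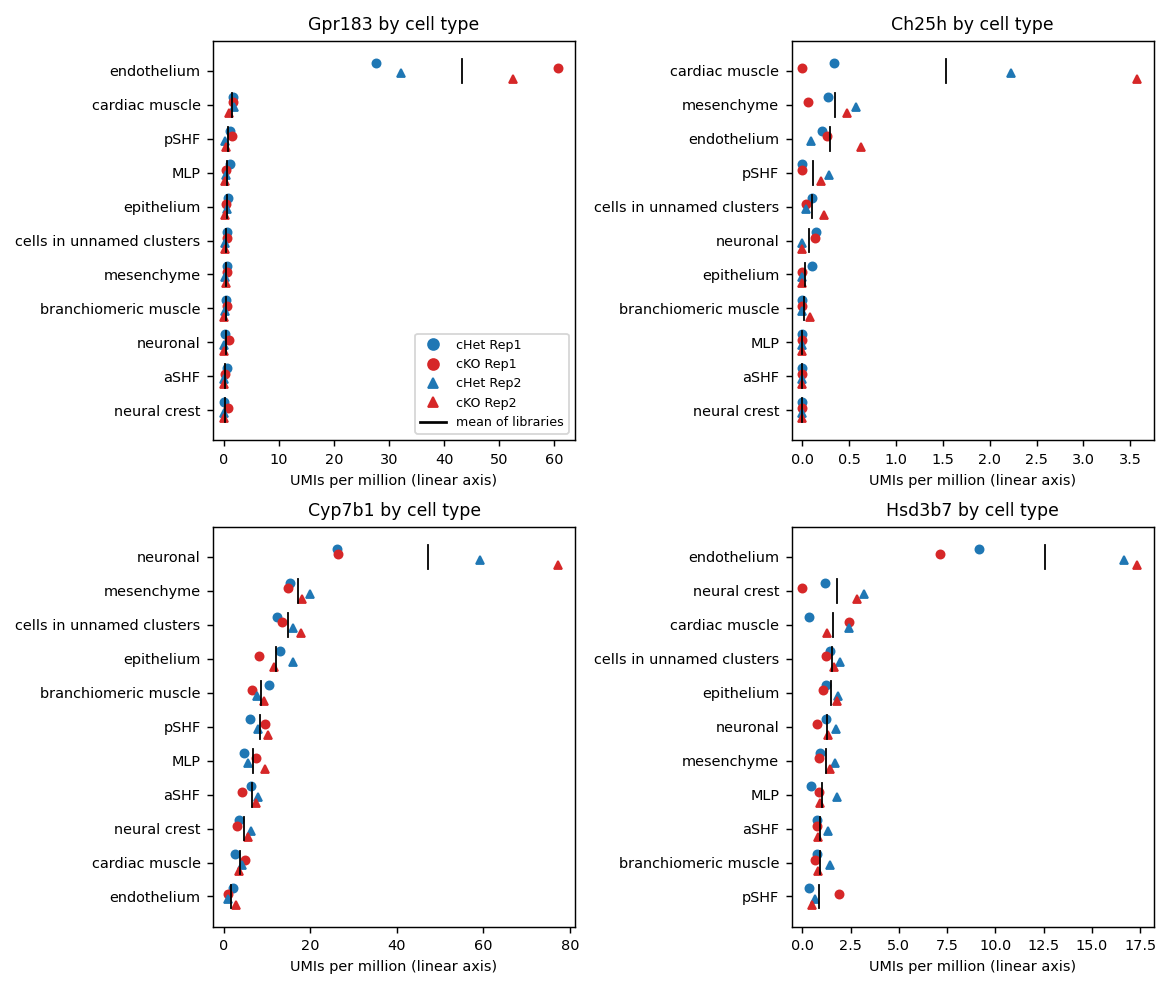
CPM (x axes, linear) of the 4 genes in each named cell type and in the unnamed clusters (y axes), for cHet (blue) and cKO (red), Rep1 (circles) and Rep2 (triangles), with black bars at the mean of the libraries. Gpr183 and Hsd3b7 had their highest level in endothelium, Cyp7b1 its highest in neuronal and its lowest in endothelium, and Ch25h stayed at or below 3.57 in every group.

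The genes whose log2(CPM + 1) followed Gpr183 most closely over 40 points (10 named types in 4 libraries) were Cd93 (Pearson r = 0.97), 2610203C22Rik (0.96), Itga2 (0.96), Mmrn2 (0.96) and Cldn5 (0.96), among 10758 genes. Cd93, Mmrn2 and Cldn5 are known endothelial genes, for a surface receptor, its matrix partner and a tight junction protein. Points of 1 library share its depth and kit, so these values are descriptions. RNA of blood cells was low in the endothelium-like cells. Ptprc, the pan-leukocyte marker, and C1qa, a macrophage gene, were at 0 UMIs in all 4 libraries, while Fcer1g and Itga2b gave most of the UMIs of the 8 blood markers, which summed to 10.9 and 5.11 CPM in cHet and 8.45 and 5.09 in cKO. Among endothelium-like cells with no UMI of these markers Gpr183 was at 24.8 and 33.4 CPM in cHet and 59.8 and 55.2 in cKO (Rep1 and Rep2). Among the 42 to 58 cells per library with such a UMI it was at 43.7 and 22.4 CPM in cHet and 65.1 and 24.2 in cKO, so in Rep2 the genotypes were close there.

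Within endothelium, Gpr183 was found in some clusters and nearly missing from others. The 2 clusters with Etv2, Tal1 and Lmo2, transcription factors of endothelial progenitors (31 to 111 cells per library), had 2.62 CPM in cHet Rep1, 2.37 in cKO Rep1, 0.992 in cHet Rep2 and 4.29 in cKO Rep2, from 2 to 8 UMIs. Muscle genes (Ttn, Tnni1, Des) led one of these Etv2-positive clusters and mesenchymal genes (Cdh11, Ebf2) the other, and the part of such RNA in the result was not tested. The mix of the 2 differed between libraries, the mesenchymal one being 15.8% of endothelial cells in cHet Rep1 and 0.727% in cKO Rep1. The clusters that met the marker rule of no state, called mature here (242 to 501 cells), had 34.5, 68.3, 43.4 and 70.2 CPM in the same order. The mature and the Etv2-positive clusters did not overlap, and the edgeR fit gave a log2 difference of 4.35 ± 0.22 (SE, 4 libraries). With so few UMIs in the Etv2-positive clusters the gene entered that fit through its level in the mature clusters, so the difference is given with no p. In this comparison 32.2% of 11487 genes passed the threshold. The arterial-like cluster, with Gja4, Gja5, Dll4 and Hey1, had 3 Gpr183 UMIs in 88 cells over the libraries, and the endocardial-like cluster, with Nfatc1 and Npr3, had 0 in 49 cells. In Rep2 that was 0 of 19 cHet cells and 0 of 25 cKO cells, which allows a share of up to 15.8% and 12% of cells with a UMI. These last 2 groups fell below 10 cells in some libraries and were not tested.

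Mature clusters also differed among themselves. Cluster 6, whose leading genes were Vwa1, Itga4 and Car4, had the highest level in all 4 libraries, at 117 CPM in cHet Rep1, 105 in cKO Rep1, 96.0 in cHet Rep2 and 115 in cKO Rep2, with 13 to 53 cells. The other 4 mature clusters ranged from 26.8 to 86.9 CPM and overlapped each other. Cluster 0 was led by Tll1, Stab2 and Lhx6, cluster 1 by Kcne3, Col15a1 and Igfbp3, and clusters 2 and 3 by cell division genes such as Aspm and Cdc20. Since clusters were drawn from the same cells, these values are a description.

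**Figure D2:**
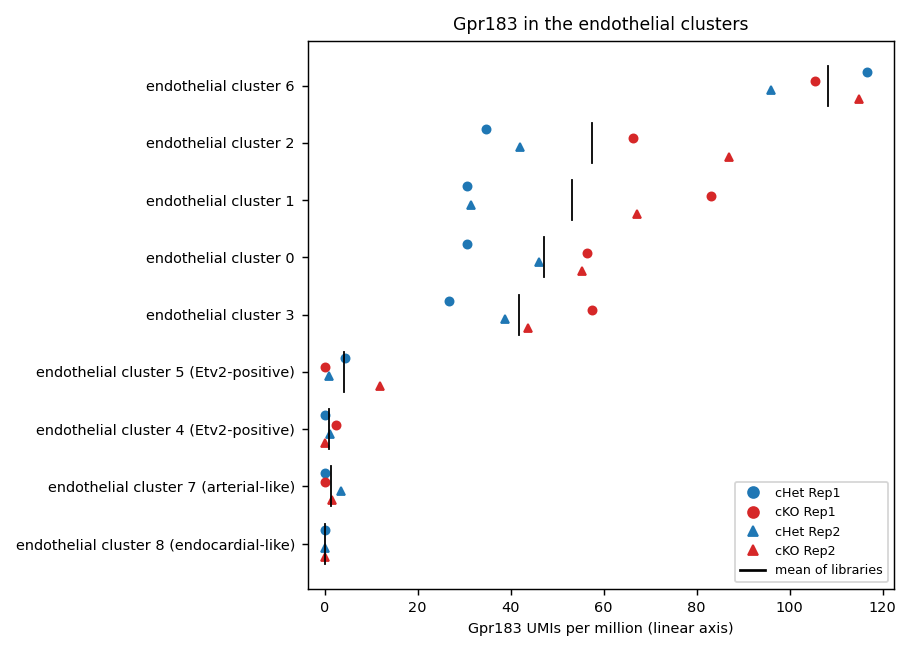
Gpr183 CPM (x axis, linear) in the 9 endothelial clusters (y axis), for cHet (blue) and cKO (red), Rep1 (circles) and Rep2 (triangles), with black bars at the mean of the libraries that held cells of the cluster. Cluster 6 sits highest, and the Etv2-positive, arterial-like and endocardial-like clusters lie at or below 11.8. In clusters 0, 1, 2 and 3 every cKO value lay above every cHet value, but these are parts of the contrast that chose the gene.

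In cKO endothelium Gpr183 was higher than in cHet in both replicates, by 2.20-fold in Rep1 and 1.63-fold in Rep2, and the genotypes did not overlap. The control of the larger ratio was cHet Rep1, the library with the low share of UMIs in kept cells, and the part of that in the ratio was not tested. The genotype difference in endothelium is the contrast that chose the gene, so the lack of overlap is no added support. The share of all genes without overlap was not counted. The edgeR fit over both replicates gave a log2 fold change of 0.92 ± 0.12 (SE), in a comparison in which 0.0% of 13043 genes passed the threshold (596 at an unadjusted p under 0.05, and 4 past the threshold by DESeq2). Within the mature clusters the log2 difference was 0.98 in Rep1 and 0.69 in Rep2, where 0.318% of 12281 genes passed. The makeup of the endothelium differed between genotypes, most in Rep1. Etv2-positive clusters were 24.8% of endothelial cells in cHet Rep1 and 11.3% in cKO Rep1, against 14.6% and 13.9% in Rep2. Cluster 5, the one led by mesenchymal genes, was 15.8% and 0.727% in Rep1 and 7.41% and 4.52% in Rep2 (cHet and cKO). Cluster 4, the other, was 8.93% and 10.5% in Rep1 and 7.22% and 9.34% in Rep2. With the same makeup of 6 clusters imposed on every library, leaving out clusters 5, 7 and 8, which had under 10 cells in some libraries, Gpr183 was at 34.0 and 40.1 CPM in cHet and 61.9 and 60.6 in cKO (Rep1 and Rep2).

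The difference was not equal across the mature clusters. In cluster 1 Gpr183 was 2.71-fold higher in cKO in Rep1 and 2.13-fold in Rep2, and in cluster 2 it was 1.91-fold and 2.07-fold. In clusters 0 and 3 the ratio was 1.85 and 2.14 in Rep1 and 1.20 and 1.13 in Rep2. In cluster 6 it was 0.904 and 1.20, so the cluster with the highest level was the mature cluster in which the replicates disagreed on the direction. Cluster 6 made up 2.90% and 6.08% of cHet endothelium and 9.82% and 7.98% of cKO. Whether the clusters differ in the genotype effect was not tested, as all belong to the contrast that chose the gene.

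More cells had the transcript and more of them had several copies. In mature cells thinned to 5000 UMIs each, 14.5% had a Gpr183 UMI in cHet Rep1 and 23.6% in cKO Rep1, and 18.1% and 26.3% in Rep2. Before thinning the shares were 39.2% and 62.8% in Rep1 and 41.0% and 48.1% in Rep2. At equal depth, 1.85% of cHet and 6.61% of cKO cells had 2 or more UMIs in Rep1, and 4.52% and 8.38% in Rep2. Median depth of endothelial cells was 20465 UMIs in cHet Rep1 and 27154 in cKO Rep1, and 21102 and 16629 in Rep2. Depth was thus higher in cKO in Rep1 and lower in Rep2, and its part in the shares before thinning was not tested.

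Outside endothelium Gpr183 could be fitted in mesenchyme alone of the 9 other named types. Its level there was 0.594 CPM in cHet Rep1, 0.526 in cKO Rep1, 0.240 in cHet Rep2 and 0.389 in cKO Rep2, and the genotypes overlapped. The log2 fold change was 0.25 ± 0.49 (SE, edgeR, adjusted p = 0.97), where 2.12% of 15548 genes passed the threshold. A difference in mesenchyme was not detected at this depth of 8 to 16 UMIs per library, and how large a difference could be detected was not tested.

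Hsd3b7, the enzyme that inactivates the ligand, was also highest in endothelium. Its level was 9.16 CPM in cHet Rep1, 7.15 in cKO Rep1, 16.7 in cHet Rep2 and 17.3 in cKO Rep2, above all libraries of every other type, the next highest value being 3.19 in neural crest. The level was higher in Rep2 than in Rep1 in both genotypes. Against all other cells Hsd3b7 was 3.40 ± 0.16 higher on the log2 scale (SE, 4 libraries, edgeR, adjusted p = 6.1e-08). Its level in mature clusters was 11.0, 7.78, 19.5 and 19.9 CPM in the order given for Gpr183, and 1.57, 1.19, 4.46 and 2.68 in the Etv2-positive clusters, with no overlap. The fitted log2 difference was 2.55 ± 0.28 (SE, edgeR), given with no p because the enzyme too had few UMIs (1 to 9 per library) in the Etv2-positive clusters. In the arterial-like and endocardial-like clusters of Rep2 it had more UMIs than the 3 and 0 of Gpr183, with 10 and 15 UMIs in the arterial-like and 8 and 10 in the endocardial-like cells (cHet and cKO).

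Between genotypes in endothelium, Hsd3b7 was 0.781-fold in cKO relative to cHet in Rep1 and 1.04-fold in Rep2, a fitted log2 difference of -0.09 ± 0.16 (SE), and the genotypes overlapped. In the types outside endothelium where it could be fitted (branchiomeric muscle, epithelium and mesenchyme), the log2 fold change ran from -0.57 to -0.07 and 0 passed the threshold by edgeR or by DESeq2, with 0 at an unadjusted p under 0.05 by either tool. Over all genes 1.78%, 0.0% and 2.12% passed in these types. Receptor and enzyme were found in the same cells in part. In thinned mature cells Hsd3b7 had a UMI in 6.38%, 8.77%, 6.94% and 12.1% of Gpr183-positive cells and in 6.50%, 3.78%, 12% and 6.50% of Gpr183-negative cells (cHet Rep1, cKO Rep1, cHet Rep2, cKO Rep2). These shares rest on 3, 5, 5 and 16 cells with both transcripts and showed no common direction. Over all endothelium-like cells they were 6.0%, 8.77%, 6.94% and 11.9% in positive and 5.28%, 3.67%, 10.8% and 6.24% in negative cells. Cyp7b1 was found with Gpr183 in 0, 0, 0 and 1 of these cells. The 5 genes whose pattern over cell types was most like that of Hsd3b7 were Map4k2 (r = 0.91), Arpc3 (0.90), She (0.89), Map4k5 (0.89) and Creg1 (0.88).

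Cyp7b1, which makes the ligand, was lowest in endothelium, at 2.06 CPM in cHet Rep1, 1.04 in cKO Rep1, 1.08 in cHet Rep2 and 2.77 in cKO Rep2. Against all other cells it was -2.82 ± 0.19 on the log2 scale (SE, 4 libraries, edgeR, adjusted p = 7.9e-07). The neighbour above endothelium in the order, cardiac muscle, overlapped it, with 2.70 to 4.88 CPM. The highest level was in neuronal cells, at 26.3, 26.4, 59.1 and 77.3 CPM, which did not overlap the 14.9 to 19.9 CPM of mesenchyme. The neuronal values were made of 2 clusters in unequal numbers. In the larger, with Neurod1, Stmn2 and Tubb3, Cyp7b1 was at 33.4, 40.9, 48.2 and 63.9 CPM. The smaller was led by Hes5, Rfx4, Fabp7 and Pou3f2, known from neural progenitors, with no neuronal marker among its 10 leading genes. In it Cyp7b1 was at 8.09 and 8.67 in Rep1, from 99 and 160 cells, and at 167 and 181 in Rep2, from 18 and 26 cells. Mesenchyme held 20.1% to 24% of the Cyp7b1 UMIs of a library and 14.4% to 18.7% of its cells. The unnamed clusters held 40.9% to 52.1% of the UMIs, near their 40.3% to 50.5% of cells. Endothelium held 0.413% to 1.41%. The nearest patterns over cell types were those of Kcnb2 (r = 0.89), Eya2 (0.89), Nrsn1 (0.89), Akap17b (0.88) and Fzd3 (0.88).

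Cyp7b1 was abundant enough to compare genotypes in 8 of the 9 other types, and in 0 of them did it pass the threshold by edgeR or DESeq2. The share of all genes that passed was 0.145% in aSHF (anterior second heart field), 1.78% in branchiomeric muscle, 0.0587% in cardiac muscle, 0.0% in epithelium and neuronal cells (584 and 697 genes at an unadjusted p under 0.05 by edgeR, and 3 past the threshold in each by DESeq2), 2.12% in mesenchyme, 0.606% in MLP and 0.693% in pSHF. At an unadjusted p under 0.05, 3 types differed by edgeR and 0 by DESeq2. In epithelium Cyp7b1 was at 13.1 and 15.9 CPM in cHet and at 8.08 and 11.7 in cKO, lower in cKO in both replicates, with a log2 fold change of -0.53 ± 0.15 (SE, edgeR, adjusted p = 1.0). The epithelial clusters were present in unequal numbers. In the one led by Lmx1a and Spp1 Cyp7b1 was at 8.20 and 6.58 CPM in cHet and 3.36 and 6.61 in cKO. In the other epithelial clusters it was lower in cKO in both replicates. In MLP it was at 4.64 and 5.62 CPM in cHet and 7.45 and 9.46 in cKO, higher in both, with 0.72 ± 0.29 (SE, edgeR, adjusted p = 0.57). In pSHF it was at 6.11 and 7.90 in cHet and 9.5 and 10.3 in cKO, with 0.46 ± 0.22 (SE, edgeR, adjusted p = 0.81). The other 5 types ran from -0.29 to 0.21. The direction of the estimates thus differed between types. A type by genotype term, fitted after the data were seen, passed the threshold for 0 of the 31 comparisons of 2 types that the members allowed (edgeR, lowest adjusted p = 0.48, 8 at an unadjusted p under 0.05). The share of all genes that passed for this term was not counted, so these counts do not decide whether the types differ. In endothelium the ratio of cKO to cHet was 0.505 in Rep1 and 2.57 in Rep2, in opposite directions.

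**Figure D3:**
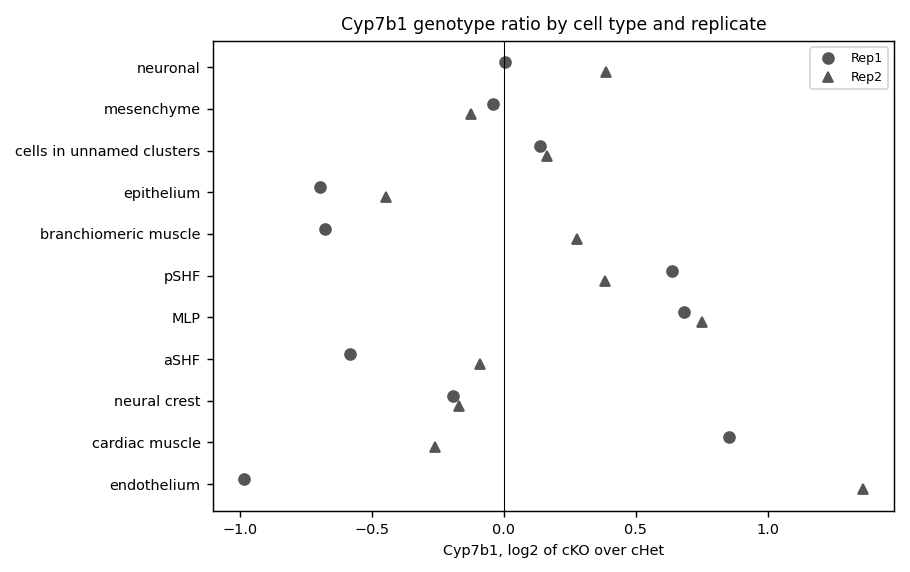
Log2 ratio of Cyp7b1 CPM in cKO over cHet (x axis) in each cell type (y axis, ordered by Cyp7b1 level), for Rep1 (circles) and Rep2 (triangles). Both replicates lie below 0 in epithelium, aSHF, mesenchyme and neural crest, above 0 in MLP, pSHF, neuronal cells and unnamed clusters, and on opposite sides in endothelium, cardiac muscle and branchiomeric muscle. The neuronal value in Rep1 was 0.0041, close to no difference, and neural crest rests on 2 to 4 UMIs per library.

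Ch25h, which starts the pathway, was close to absent. All kept cells together held 125 Ch25h UMIs. In cardiac muscle there were 1, 0, 12 and 17 UMIs (cHet Rep1, cKO Rep1, cHet Rep2, cKO Rep2), the last 2 at 2.23 and 3.57 CPM, so the signal there came from Rep2. A mesenchyme cluster led by Tagln, Foxl1 and Lum had 5, 1, 19 and 17 UMIs. An unnamed cluster led by Vtn, Cthrc1 and Sparcl1 had 5, 3, 2 and 18, most of them in cKO Rep2. Endothelium had 2, 2, 1 and 7, and MLP, aSHF and neural crest had 0 in every library. Between endothelium and all other cells the log2 difference of 1.00 ± 0.57 did not pass the threshold (SE, edgeR, adjusted p = 0.15). Mesenchyme was the only type where the genotypes could be fitted, with -0.59 ± 0.54 (SE, edgeR, adjusted p = 0.87). The genes nearest to it over cell types were Tdgf1 (r = 0.80), Myl6 (0.77), Clic4 (0.77), Abra (0.76) and Wnt11 (0.74). Ch25h was at 0 in many of the points and highest in cardiac muscle of Rep2, so these r values lean on few points.

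Genes around the receptor and its ligand were read from 7 lists of sterol, signalling, receptor and neighbouring genes. They held 115 genes, of which 86 could be fitted in endothelium. Between genotypes 0 of the 86 passed the threshold by edgeR or by DESeq2, where 0.0% of all genes passed by edgeR. At an unadjusted p under 0.05 there were 5 of 86 by edgeR, a share near that of 596 of 13043 over all genes, and 0 of 86 by DESeq2. The median log2 fold change of the 86 was -0.01, against -0.0032 over all genes. Those 5, named after their values were seen, were Nr1h3, the oxysterol receptor LXR alpha, at -0.95 ± 0.35, Lpar1, a lysophosphatidic acid receptor, at -0.44 ± 0.12, Apoe at -0.17 ± 0.07, the lipid exporter Abcg1 at 0.32 ± 0.11 and the lipoprotein receptor Lrp8 at 0.39 ± 0.16 (SE). Of the 20 cholesterol synthesis genes, 20 were fitted and ran from -0.23 to 0.42. Among the neighbours of Gpr183 on its chromosome, Ubac2, Tm9sf2 and Dock9 lay between -0.05 and 0.08 and Gpr18, an adjacent receptor gene, at -0.74.

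**Figure D4:**
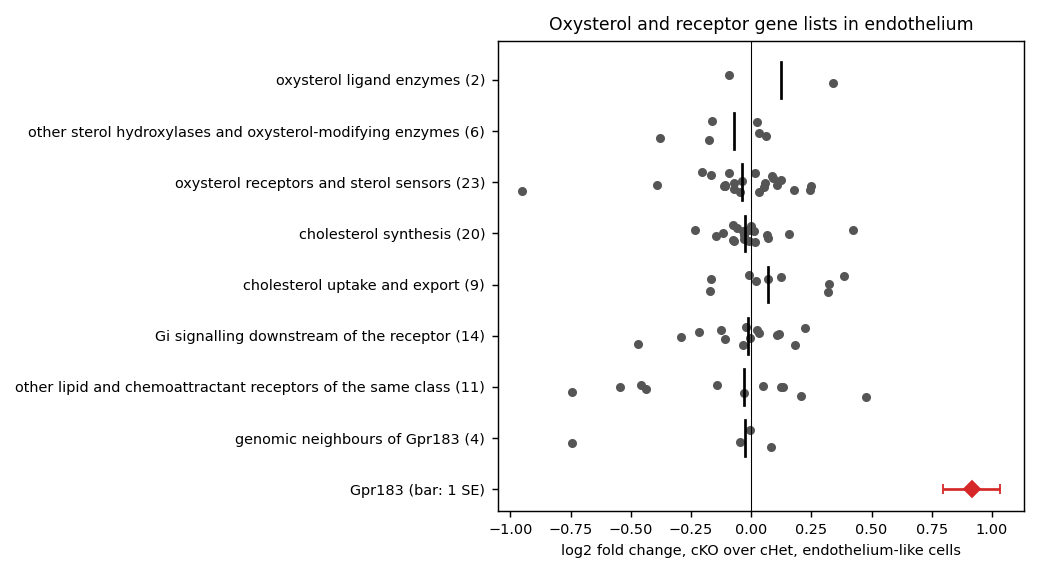
Log2 fold change of cKO over cHet in endothelium-like cells (x axis) for each list gene that could be fitted (points, with the number of genes in brackets and black bars at the list median), and for Gpr183 (red, bar 1 SE). The list medians lie between -0.07 and 0.12, and Gpr183 at 0.92.

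The comparison of endothelium with all other cells, in which 66.0% of all genes passed the threshold, was read for the same lists. Unlike the members, list genes were not left out of the genes that could build the clusters. Passing the threshold is therefore no test of them, and these values are a description. In it 7 of 10 genes of cholesterol uptake and export were higher and 1 lower, with a median log2 difference of 1.16. They included Abcg1 at 3.41 ± 0.16, Apoe, which carries lipid, at 2.81 ± 0.05, Abca1 at 2.41 ± 0.09 and Scarb1, a lipoprotein receptor, at 1.41 ± 0.09 (SE, edgeR, passed at adjusted p under 0.05). Of the 20 synthesis genes 4 were higher and 8 lower, with a median of -0.16, against -0.03 over all genes, so that the share that passed was no higher than over all genes. In the Gi signalling list 10 of 16 genes were higher and 4 lower. Gnai2, a subunit through which receptors of this class signal, was at 1.62 ± 0.04, and Rgs2, a regulator of G protein signalling, at 3.42 ± 0.06. Of 18 related receptors 5 were higher and 8 lower, and the log2 differences ran from -5.34 to 7.81. S1pr1, the sphingosine 1-phosphate receptor of endothelium, was 5.85 ± 0.10 higher, Lpar4 1.68 ± 0.05 and Lpar6 1.75 ± 0.06, whereas Lpar1 was at -2.77 ± 0.13. The oxysterol receptor and sensor list was split, with 7 of 23 higher and 7 lower, again no more than over all genes.

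In the comparison of mature with Etv2-positive clusters 32.2% of all genes passed the threshold, 1856 of 3704 of them higher in mature cells. List genes could help to build these clusters too, so passing the threshold is again no test of them and the values are a description. The muscle and mesenchymal genes that led the Etv2-positive clusters stand beside each of these differences too, and their part was not tested. Nor was that of the unequal mix of these clusters between libraries. Of 20 synthesis genes 11 were lower and 1 higher in mature cells, with a median of -0.44, against 0.01 over all genes. Cyp51 was at -1.31 ± 0.15 and Hmgcs1 at -0.69 ± 0.11, while Ebp was higher at 1.01 ± 0.16 (SE, edgeR, passed at adjusted p under 0.05). Insig1, a sterol-responsive brake on synthesis, was lower at -1.47 ± 0.14. Abca1 was higher at 1.64 ± 0.17 and Vldlr lower at -2.44 ± 0.28. S1pr1, Lpar4 and Lpar6 were higher by 2.27 ± 0.19, 1.88 ± 0.13 and 1.30 ± 0.10, and Gnai2 by 1.15 ± 0.09. By list, 3 of 8 related receptors were higher and 2 lower, 2 of 13 Gi signalling genes were higher and 0 lower, 3 of 9 uptake and export genes were higher and 1 lower, and 2 of 23 receptors and sensors were higher and 5 lower.

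Endothelium-like cells with a Gpr183 UMI were compared with those without, each cell thinned to 5000 UMIs. Of 6786 genes at 20 CPM or more in the positive cells, 849 were higher in all 4 libraries. The minimum was set on the positive cells, which favours genes that are higher there, so the count says nothing about how many genes differ. The 10 with the highest median log2 ratio were Sh2d4b (1.01), Aplnr (0.97), Piezo2 (0.96), Depdc1b (0.93), Egr1 (0.92), Adgrg3 (0.88), Tfec (0.86), Enpp2 (0.85), Colgalt2 (0.82) and Mgmt (0.81). Some varied widely between libraries, Sh2d4b from 0.015 to 1.75, Egr1 from 0.13 to 1.68 and Colgalt2 from 0.087 to 1.62. Piezo2 ran from 0.74 to 1.04. Sh2d4b and Egr1 averaged 21.2 and 23.8 CPM in positive cells, near the minimum of 20. Aplnr is the apelin receptor of venous and sprouting endothelium, Piezo2 a mechanosensitive channel, and Enpp2 the enzyme that makes lysophosphatidic acid. Aplnr averaged 279 CPM in positive and 150 in negative cells, and Piezo2 322 and 167. Within the mature clusters alone, Egr1 (0.94), Depdc1b (0.94) and Mgmt (0.78) remained among the 10 leading genes, and Aplnr and Piezo2 did not. Positive cells were few in the Etv2-positive, arterial-like and endocardial-like clusters, so the first list also carries the differences between clusters. The list from mature cells can carry differences among the mature clusters, since Depdc1b was a leading gene of cluster 2. Egr1 is also one of the response genes that cell handling can induce. These ratios are a description, since the cells were divided by Gpr183 itself.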

How the data were processed

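Raw UMI counts per gene and cell were deposited by the authors, who per the labels and methods used Cell Ranger 8.0.1 on mm10. The Rep1 file headers name an earlier version. Cells with at least 3000 genes, at most 10% mitochondrial and 5% hemoglobin counts were kept, and doublets were removed by Scrublet score at the share expected for each kit. Variable genes (2000 without the members) were chosen in scanpy 1.11.5 and reduced to 30 components. The components were aligned between Rep1 and Rep2, and cells were then clustered by the Leiden method at resolution 0.8. Endothelium was aligned and clustered again by itself, from its own variable genes, at the same resolution. Clusters were named from at least 3 markers. Counts were summed per library and type and fitted with edgeR 4.0.16 (TMM, filterByExpr, Benjamini-Hochberg, threshold 0.05) in R 4.3.3, with genotype and a replicate block, or cell group and a library block. DESeq2 1.42.0 was an alternative. The edgeR script was tested on simulated data with known changes. The replicate numbers pair the libraries, since each number marks a 10x kit, and deviations of same-numbered libraries from their genotype mean correlated at r = 0.78 over 13043 genes in endothelium.

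Lists of genes and members were chosen with earlier results of these data known. Genes named are the members, examples of list genes past the threshold in endothelium or its clusters, the 5 most alike in pattern, and the 10 leading genes of Gpr183-positive cells. Replicates were separate pools of embryos. In genotype fits, p-values and SEs rest on how far the genotype difference varied between the 2 replicates, with information shared across genes. In cell group fits the library block removed differences between pools, so p-values rest on how the group difference varied among libraries. SEs were derived from the edgeR test statistic. For Gpr183 between genotypes in endothelium the SE was 0.12, against 0.21 by DESeq2. CPM values compare a gene between groups, not genes with each other. The comparisons of 2 types by genotype, the equal cluster makeup and the leading genes within mature clusters were added after the data were seen. Promoter sequences came from RefSeq and matched 3 of the 4 members.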

Additional observations from a re-analysis of the deposited data

How the results depend on the processing

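Over the alternatives (DESeq2 size factors or test, no expression filter, no replicate or library block, doublets kept, cells thinned, endothelium defined by a marker gate or without blood-marker cells, each library left out), 109 of 111 values of the main results kept their direction and side of the threshold or, for values with no test, moved by less than the spread between replicates. Many of these values are counts of 0 members that passed, in fits where few or 0 of all genes passed, so their constancy says nothing about stability. Others are reruns of the Gpr183 contrasts given above with no p, so they are a description and no support either. Of 162 values for single genes, 144 kept theirs and 16 reversed. The Gpr183 difference in endothelium was 0.96 ± 0.26 (log2, SE) with no replicate block. It was 0.63 to 1.23 with each library left out, the highest without cKO replicate 2. Genotype fits with a library left out also had no replicate block, so the remaining libraries were unbalanced between the kits. With the same cluster makeup in each library, an alternative chosen after seeing the data, it was 0.73. With doublets kept, 1 list gene passed the threshold in endothelium, Lpar1. The number of all genes that passed in endothelium was 0 by edgeR, with 596 at an unadjusted p under 0.05. It was 100 with DESeq2 size factors, 136 with no filter, 4 by DESeq2, 165 with doublets kept, 145 with the marker gate and 116 without blood-marker cells, 1 with cells thinned and 0 with no replicate block. In mature endothelium it was 39, against 79 with DESeq2 size factors, 65 with no filter, 3 with doublets kept, 9 with cells thinned and 0 by DESeq2 or with no replicate block. Between mature and Etv2-positive clusters it was 3704, against 2065 with no library block and 1690 with cells thinned, and between endothelium and other cells 11490, against 7478 with no library block. In the other types it ranged from 0 to 51 in aSHF (19), 0 to 360 in branchiomeric muscle (261), 0 to 55 in cardiac muscle (7), 0 to 36 in epithelium (0), 0 to 411 in mesenchyme (329), 0 to 75 in MLP (73), 0 to 267 in neuronal cells (0) and 0 to 130 in pSHF (90), with the main count in parentheses. The cause was not tested. With cells thinned, Gpr183 and Ch25h could not be fitted outside endothelium.

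Among single genes, some differences reversed when a library was left out. Those genotype fits had no replicate block, so differences between the kits enter their values. A reversal there does not measure the genotype difference alone. Hsd3b7 in endothelium ran from -0.61 to 0.28 (0.28 without cKO replicate 1, 0.19 without cHet replicate 2) and Cyp7b1 in endothelium from -0.43 to 0.98 (-0.32 without cHet replicate 2), with -0.25 when doublets were kept. Cyp7b1 ran from -0.56 to 0.23 in branchiomeric muscle (0.033 with doublets kept), from -0.043 to 0.65 in cardiac muscle and from -0.50 to 0.78 in neuronal cells (-0.09 without cHet replicate 1). Hsd3b7 ran from -0.31 to 0.10 in epithelium (0.07 without cHet replicate 2) and from -0.41 to 0.16 in mesenchyme, Gpr183 from -0.51 to 1.12 in mesenchyme (-0.23 without cKO replicate 1), and Ch25h from -2.42 to 0.040 in mesenchyme. The counts of Gpr183 and Ch25h outside endothelium are low, and how large a difference they could reveal was not tested.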

Other observations

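Response genes that cell handling can induce (Jun, Fos, Egr1, Hspa1a, Hspa1b and Dusp1) summed to 135 and 170 CPM in cHet endothelium and 124 and 179 in cKO (Rep1 and Rep2), on opposite sides in the replicates. Division genes Mki67 and Top2a summed to 492 and 931 CPM in cHet and 451 and 870 in cKO endothelium. Gpr18, the neighbouring receptor gene, chosen after its values were seen, was at 6.70 and 0.979 CPM in mature cHet endothelium and 3.96 and 0.364 in cKO, lower in cKO in both replicates, with a log2 fold change of -0.86 ± 0.39 (SE, edgeR, adjusted p = 0.78).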
